A study of Rattus norvegicus with 8 samples.

Results

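The RT1 class I heavy chains examined here are the products of 5 genes of the rat major histocompatibility complex, RT1-A1, RT1-A2, RT1-CE5, RT1-S3 and RT1-T24-4. Their members were all non-control spots whose gene name equals one of these 5, which gave 8 probes of the 45598 distinct probes on the array. They were measured in NR8383 cells, a rat alveolar macrophage line started from lung lavage of a normal rat, at passage 200 (P200, 4 arrays) and at passage 20 (P20, 4 arrays). All cells were untreated, had been seeded 48 h before harvest and grew partly attached and partly floating. The labels call the 4 samples of each passage biological replicates without saying whether they came from separate cultures, so the p-values measure the spread between these samples. Time in culture and everything else that differed between the passages cannot be told apart.

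Class I molecules display peptides from inside the cell. A polymorphic heavy chain folds with the invariant light chain β2-microglobulin (B2m), receives a peptide from the Tap transporter in the endoplasmic reticulum and travels to the surface, where CD8 T cells and natural killer cells read it. RT1-A genes encode the classical heavy chains of the rat, and the RT1-CE, RT1-S and RT1-T24 genes lie in the cluster of non-classical class Ib genes. Transcription of classical class I genes is driven by a shared set of promoter elements, bound by NF-κB, interferon regulatory factors and the NLRC5 enhanceosome, and interferon raises it.

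Every probe of the 5 genes was lower on average at P200 than at P20. Each retained 68.0% to 85.2% of its P20 signal, and the median log2 change was -0.33 over the 8 probes. The test was passed by 5 of them, all lower (adjusted p under 0.05, limma, Benjamini-Hochberg over all 19458 probes tested), and missed by 3. Over all tested probes the share called lower was 5.28% and the median log2 change was 0.00. The fallers were RT1-A1, RT1-A2, a probe of RT1-S3 and 2 probes of RT1-T24-4. The remaining probes of RT1-S3 and RT1-T24-4 and the probe of RT1-CE5 gave negative changes that missed the threshold. When the arrays were scaled to their median in place of their 75th percentile, all 8 changes were still below 0 but none passed the test.

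The genes of this family are alike in sequence, and so are several of the probes that read them. In the rn4 coordinates of the files, all 8 probes lie on chromosome 20. The RT1-T24-4 probe A_44_P1085048 is placed at chr20:2837620-2837679, and the RT1-T24-4 probes A_44_P1099873 and A_64_P156436 at chr20:2837688-2837748. The RT1-S3 probes lie at chr20:2817942-2818001 (A_44_P128151) and chr20:2820059-2820117 (A_44_P454420). RT1-CE5 is read at chr20:3509654-3509713 on the minus strand, RT1-A2 at chr20:5025230-5025289 and RT1-A1 at chr20:5060187-5060246. Exon and intron annotation of that build was not used here. Within their transcripts the probes begin between base 931 and base 2096.

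Stretches of 30 bases are printed for the 4 member probes that have GAATAC in common, to show the bases they share with the RT1-A2 probe. In RT1-A2 the capitals mark GAATAC, and in the other 3 they mark the unbroken run around it that the RT1-A2 probe also holds.
RT1-A2 A_44_P1086948: actggattgaGAATACttagaggttttttg
RT1-A1 A_44_P1087138: gctggatgGAATACTTAGAGGTTTTTTGTT
RT1-CE5 A_44_P1086095: ttacgttATTGAGAATACTTAGAGGgtttt
RT1-T24-4 A_44_P1085048: ttgctttttaAATTACTGGATTGAGAATAC

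Over their full 60 bases, the RT1-A1 and RT1-A2 probes shared an unbroken run of 34 bases. The RT1-A2 probe shared 20 bases with RT1-T24-4 A_44_P1085048 and 18 with RT1-CE5. The files list the transcripts of RT1-A3 and RT1-EC2 as further targets of the RT1-A1 probe, so its signal cannot be credited to RT1-A1 alone. The probes of RT1-S3 shared at most 6 bases in a row with any other member probe, and their first 30 bases are printed below. These 2 probes read separate parts of 1 gene and shared only 5 bases in a row with each other. Short runs between probes therefore do not show that the genes are distinct. The probe sequences were not compared with transcripts.
RT1-S3 A_44_P128151: cttctccattcaccgactccagcatgccag
RT1-S3 A_44_P454420: cgacatggtaactcgctgtctgtaactagt

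A_44_P1099873 and A_64_P156436 of RT1-T24-4 carry the same 60 bases under 2 names and are a technical repeat of one measurement. They begin as follows.
RT1-T24-4 A_44_P1099873: tgttttttgtttttgttttgttttctttta

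All 8 probes were well above background on all 8 arrays, so none entered the test through one passage only, and no spot on any array was saturated. Levels below are log2 processed signal less the array's 75th percentile, listed for replicates 1 to 4 of each passage. They compare a probe with itself across arrays and not with other probes. In a bulk sample, less RNA per cell and fewer cells with the RNA cannot be told apart.

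RT1-A1 stands for the classical heavy chains that present peptide to CD8 T cells. Its probe measured 6.50, 6.29, 6.35 and 6.36 at P200, against 6.67, 6.79, 6.80 and 6.73 at P20. The highest P200 array lay below the lowest P20 array. The log2 change was -0.37 (SE 0.07, adjusted p = 0.00869, limma), which leaves 77.3% of the P20 signal. With any of the 8 arrays left out, RT1-A1 still passed the test, at -0.41 to -0.34. Under quantile scaling of the arrays it missed the threshold, at -0.43 (adjusted p = 0.0542, limma).

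RT1-A2 is the neighbouring classical gene. Its probe measured 5.55, 5.34, 5.51 and 5.42 at P200, against 5.79, 5.94, 5.89 and 5.76 at P20. Again the passages did not overlap. RT1-A2 changed by -0.39 (SE 0.07, adjusted p = 0.00995, limma), leaving 76.2% of the P20 signal. It too passed with any array left out, at -0.42 to -0.35.

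RT1-CE5 belongs to the CE group of class Ib genes, and its overlap between passages was larger. The levels were 1.89, 1.96, 2.12 and 2.15 at P200, against 2.32, 2.38, 2.30 and 2.04 at P20. P20 array 4 fell among the P200 arrays, and the other 3 P20 arrays were above all P200 arrays. The change was -0.23 (SE 0.10, adjusted p = 0.19, limma), with a 95% interval from -0.45 to -0.01.

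RT1-S3, another class Ib gene, was read by 2 probes from separate parts of its transcript. Probe A_44_P128151 measured 2.04, 1.95, 2.24 and 2.05 at P200, against 2.34, 2.39, 2.54 and 2.42 at P20. It changed by -0.35 (SE 0.08, adjusted p = 0.0245, limma) with no overlap. Left out singly, P20 arrays 2, 3 and 4 and P200 arrays 1 and 2 each ended the call, with an adjusted p of at most 0.0784 (limma), with changes of -0.41 to -0.31 over all 8 such fits. The call also ended with the slide row as a block (adjusted p = 0.0918, limma). Nearer the transcript's end, probe A_44_P454420 measured -1.48, -1.10, -0.69 and -1.04 at P200, against -0.43, -0.68, -0.37 and -0.61 at P20. The P200 arrays of this dimmer probe spread widely, with array 1 lowest and array 3 just below the P20 range. Its change of -0.56 was the most negative of the 8 (SE 0.16, adjusted p = 0.0581, limma). That probe passed without P200 array 3 (-0.68) and with the slide row as a block (-0.72).

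RT1-T24-4, named after the mouse H2-T24 gene, was read by 3 probes, of which A_44_P1085048 is spotted 10 times on each array. Its spot averages were 3.88, 3.81, 3.96 and 3.97 at P200, against 4.12, 4.23, 4.23 and 4.13 at P20. The passages did not overlap and the SDs, 0.07 at P200 and 0.06 at P20, were among the narrowest of the set. It changed by -0.27 (SE 0.06, adjusted p = 0.0296, limma), leaving 82.9% of the P20 signal. Probe A_44_P1099873 measured 0.64, 0.66, 0.82 and 0.86 at P200, against 0.99, 1.12, 1.06 and 1.00 at P20. It changed by -0.30 (SE 0.07, adjusted p = 0.0334, limma), also with no overlap. Both calls rest on all 8 arrays being present, since leaving out any array but P200 array 4 ended them. The adjusted p then reached 0.0967 and 0.0962 (limma), while the changes stayed between -0.29 and -0.24 for A_44_P1085048 and between -0.34 and -0.26 for A_44_P1099873. With the slide row as a block neither probe passed (adjusted p = 0.101 for A_44_P1085048 and 0.0807 for A_44_P1099873, limma).

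The same 60 bases under the name A_64_P156436 gave 0.76, 0.48, 0.78 and 0.85 at P200, against 1.01, 1.16, 0.62 and 1.04 at P20. Here the change was -0.24 (SE 0.13, adjusted p = 0.332, limma). The P20 value that lay within the P200 range came from array 3. On that array the second copy read -0.44 against the first, while on the other 7 arrays the copies differed by -0.18 to 0.12. The call on this sequence therefore differed between 2 copies of one probe.

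**Figure D1:**
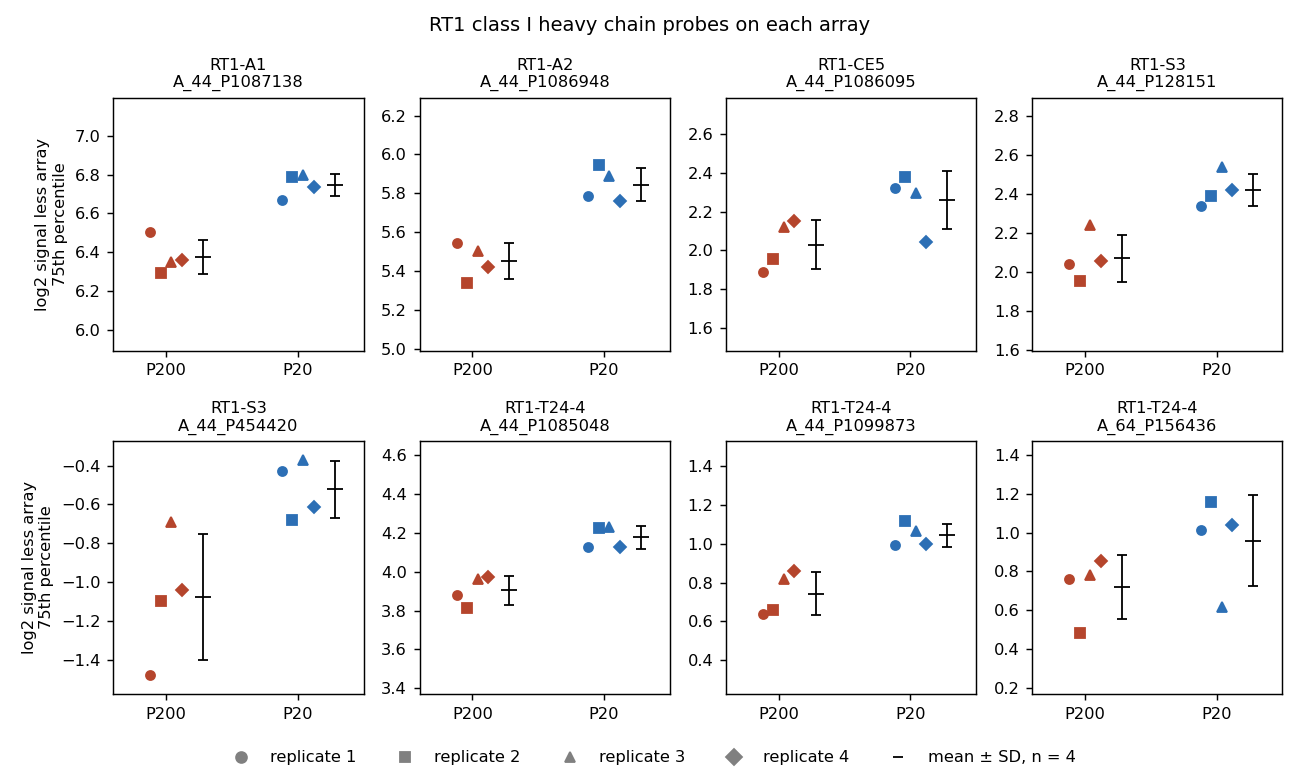
Level of each of the 8 probes (y axis, log2 signal less the array's 75th percentile, the same span in every panel) on the 4 P200 arrays (left, red) and the 4 P20 arrays (right, blue), with bars for mean ± SD. In 6 panels all P200 points lie below all P20 points, and in the panels of RT1-CE5 and RT1-T24-4 A_64_P156436 a P20 point falls into the P200 range.

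In 6 of the 8 probes all 4 P200 arrays lay below all 4 P20 arrays, a pattern found in 9.55% of all tested probes. On this scale, tested probes within 0.5 log2 units of a member's own mean level had median changes between -0.01 and 0.05. The part of brightness or scaling in the fall was not tested. The arrays sit in 2 rows of 1 slide, with 3 P200 arrays and 1 P20 array in row 1, and 1 P200 array and 3 P20 arrays in row 2. Within row 1 the 8 changes ran from -0.51 to -0.21, and within row 2 from -0.93 to -0.18. All 16 were below 0 and none passed the test, but the 8 changes of a row share its lone P20 or P200 array, so their signs are not independent of each other. With the row as a block 3 probes passed, which were RT1-A1, RT1-A2 and RT1-S3 A_44_P454420. Of the 5 fallers, 2 kept their call in that fit.

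Whether the heavy chains changed by unequal amounts was asked of pairs of probes. The difference of each pair of probes within an array does not depend on how arrays are scaled. Over the 28 pairs, the difference between their changes ran from -0.32 to 0.32. No pair passed an exact two-sided permutation test (70 splits of the arrays), where the smallest p was 0.0857 and the smallest adjusted p was 0.6. That smallest p belonged to RT1-CE5 against RT1-S3 A_44_P454420, with a difference of 0.32 (SE 0.15). With 4 arrays a passage the smallest p this test can give is 0.0286, and at least 16 of the 28 pairs would have to reach it together before any passed after adjustment. The adjusted test could therefore hardly detect unequal changes.

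The light chain was also lower on average at P200. B2m, without which a class I heavy chain does not reach the surface, measured 5.93, 6.01, 6.07 and 5.89 at P200, against 6.17, 6.37, 6.44 and 6.25 at P20. The passages did not overlap, and B2m changed by -0.33 (SE 0.08, adjusted p = 0.0294, limma), leaving 79.4% of the P20 signal. It too missed the threshold on the array-median scale (adjusted p = 0.349, limma), with the slide row as a block (adjusted p = 0.115, limma) and under quantile scaling (adjusted p = 0.0706, limma) or cyclic loess (adjusted p = 0.0684, limma). The same held with P20 array 2, 3 or 4 or P200 array 1, 2 or 4 left out, at changes of -0.38 to -0.29 over the 8 fits. Of 20 alternatives in all, B2m passed in 7. Set against B2m on the same array, 0 of the 8 member probes gave a difference with an exact permutation p under 0.05 before adjustment. At least 5 of the 8 would have to reach the smallest p of 0.0286 together to pass after it, so this comparison had little chance to show a difference.

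For RT1-A1 less B2m, the values ran from 0.28 to 0.58 at P200 and from 0.36 to 0.50 at P20, a difference of -0.04 (SE 0.08, exact permutation p = 0.629). RT1-A2 less B2m differed by -0.06 (SE 0.07, exact permutation p = 0.457). RT1-CE5 less B2m differed by 0.10 (SE 0.11) and RT1-T24-4 A_44_P1085048 less B2m by 0.06 (SE 0.07). The widest gap was -0.22 (SE 0.17) for RT1-S3 A_44_P454420, with an exact permutation p of 0.229. Over the 8 tests the adjusted p was 0.771 throughout.

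**Figure D2:**
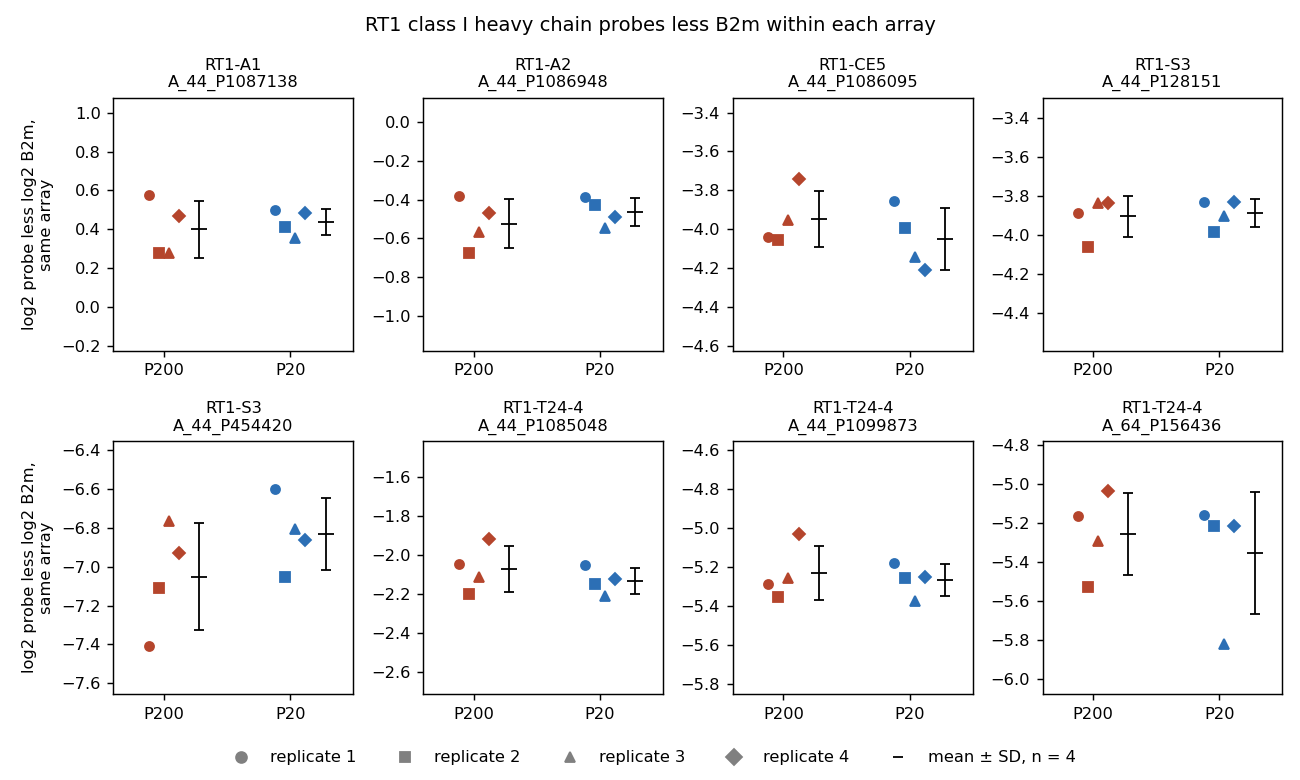
Log2 signal of each member probe less that of B2m on the same array (y axis), for the 4 P200 arrays (left, red) and the 4 P20 arrays (right, blue), with bars for mean ± SD. P200 and P20 points overlap in all 8 panels, in contrast to the plot of levels by array.

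The fall extended across the wider RT1 class I family. A further 34 gene names with 51 probes carry an RT1 class I symbol, and 37 of these probes, from 25 genes, were above background. The test called 27 of the 37 lower and 0 higher, and 10 missed the threshold, against 5.28% of all tested probes called lower. The median log2 change was -0.37, and 36 of the 37 changes were below 0. Among the 36 was RT1-M10-1 A_44_P1115627 (-0.37, not past the test), which entered through P20 only. It was well above background on 4 P20 arrays and 1 P200 array, so the filter favoured a negative change. On the array-median scale 0 of the 37 passed the test (limma) and 35 were below 0, with a median of -0.31 against 0.06 for all probes.

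The CE group gave 13 fallers among 17 tested probes. RT1-CE10 had the largest change among the fallers, measuring 2.20, 2.02, 2.20 and 1.96 at P200, against 2.45, 2.71, 2.69 and 2.52 at P20 (-0.50, SE 0.09, adjusted p = 0.00831, limma). RT1-CE12 changed by -0.45 (SE 0.11, adjusted p = 0.0276, limma). Other fallers were RT1-Cl, at -0.48 (SE 0.09, adjusted p = 0.0128, limma), and RT1-T24-1, at -0.48 (SE 0.11, adjusted p = 0.0263, limma). A second RT1-T24-1 probe gave -0.16 and did not pass the test (adjusted p = 0.384, limma).

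RT1-CE1 stood near no change, and was well above background on all 8 arrays. It measured 4.38, 4.35, 4.42 and 4.30 at P200, against 4.31, 4.49, 4.52 and 4.30 at P20 (-0.04, SE 0.07, 95% interval -0.20 to 0.13). A probe of RT1-CE15 gave -0.08 (SE 0.09), while a second probe of that gene gave -0.37 (SE 0.09, adjusted p = 0.0316, limma). In the M group, 8 of 12 probes were not tested, as they were not well above background on all 4 arrays of either passage. Whether the change of RT1-CE1 differs from those of the 5 genes was not tested.

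Of the other class I probes, 6 shared at least 20 bases in a row with a member probe, and all 6 fell, with changes from -0.39 to -0.36. Of the 31 tested that shared fewer, 21 fell, with a median of -0.36. Signal from one transcript on the probe of another was not measured, so the number of separate transcripts behind these counts is not known.

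**Figure D3:**
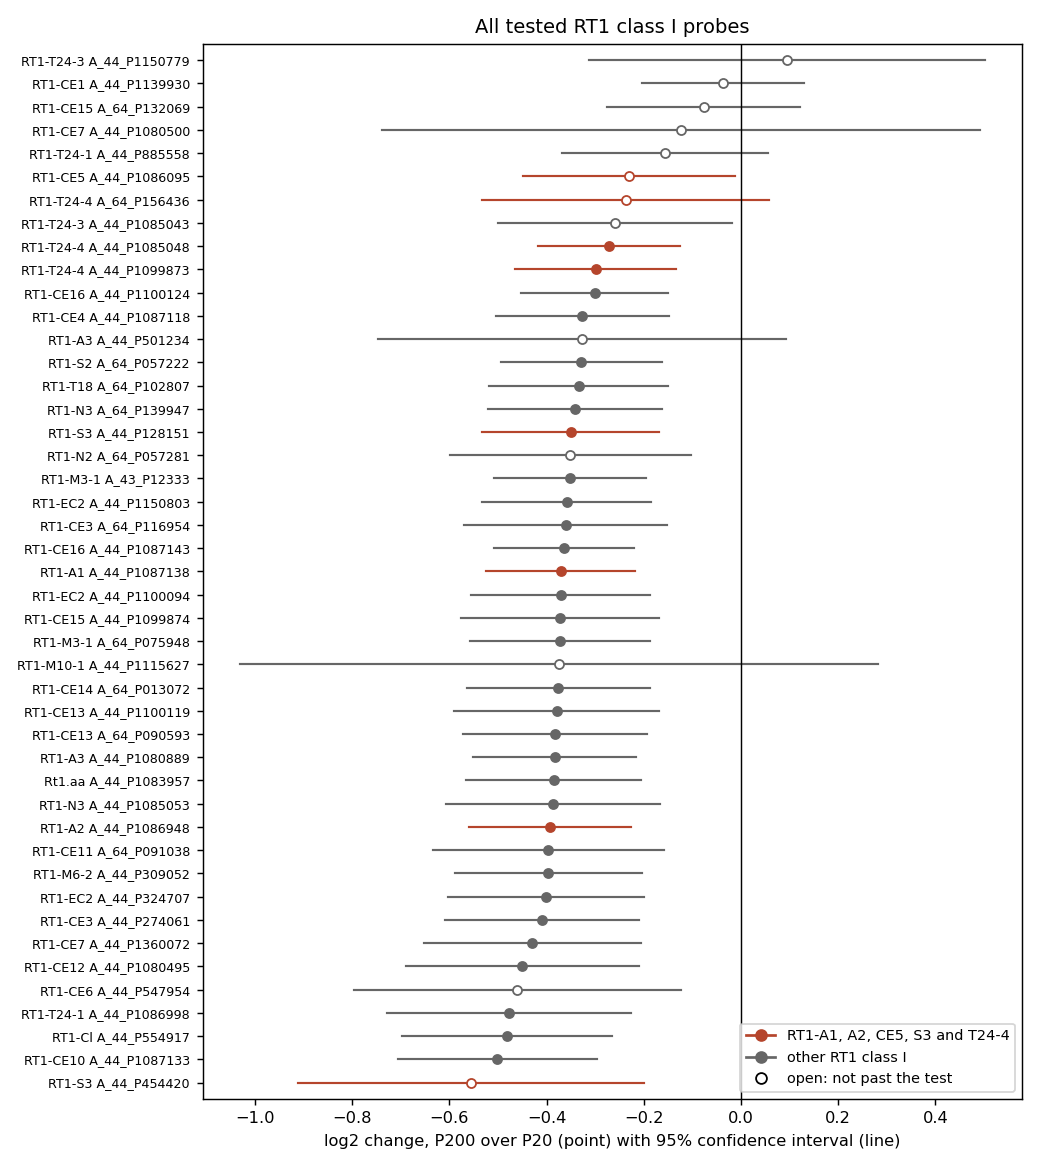
Log2 change at P200 over P20 (x axis, point) with its 95% confidence interval (line) for the 8 member probes (red) and the 37 other tested RT1 class I probes (grey), ranked; filled points passed the test. All but 1 of the 45 points lie below 0, RT1-CE1 is among the few near it, and the point above 0 did not pass the test.

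The named genes nearest to each fallen member in their profile over the 8 arrays were found by the root mean square distance of centred log2 values. Probes named only by a locus or accession code, and other probes of the member's own gene, were left out of the ranking. For RT1-A1 they were Odf2 (0.04), Ethe1 (0.04) and RT1-CE16 (0.05). RT1-A2 lay nearest to RT1-EC2, Odf2 and RT1-CE16, each at 0.04. RT1-S3 A_44_P128151 lay nearest to Vom2r72 (0.05), Zc3h12a (0.05) and RT1-S2 (0.06). RT1-T24-4 A_44_P1085048 had Eml2 (0.03), Stk10 (0.03) and Tnpo2 (0.04), and RT1-T24-4 A_44_P1099873 had Marcksl1 (0.04), Nampt (0.05) and Mboat7 (0.05). With 8 arrays in 2 groups, these distances describe likeness and carry no test.

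Most of the machinery that loads the heavy chains did not pass the test. Read on the brightest tested probe of each gene, 5.46% of all genes tested were called lower, and the counts of the lists below stand against that share. Among the 10 genes of class I assembly and peptide loading, B2m fell and 9 did not pass, with a median change of -0.07. The peptide transporter subunits gave -0.13 for Tap1 (adjusted p = 0.468, limma) and 0.02 for Tap2 (adjusted p = 0.945, limma). The other tested probe of Tap1 gave -0.23. Tapbp, which encodes the tapasin bridge between transporter and heavy chain, gave -0.05 (adjusted p = 0.814, limma). Calr, chosen after its value was seen, gave -0.27 (SE 0.08) with no overlap and did not pass (adjusted p = 0.0715, limma). Of the 10 changes, 8 were below 0. Whether genes of this list other than B2m changed by less than the heavy chains was not tested.

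The proteasome list of 5 genes contained 1 faller, against 5.46% of all genes. Psme2, a subunit of the PA28 activator of the proteasome, measured 4.19, 4.18, 4.16 and 4.15 at P200, against 4.43, 4.39, 4.55 and 4.54 at P20 (-0.31, SE 0.06, adjusted p = 0.0137, limma). The call of Psme2 ended on the array-median scale (adjusted p = 0.324, limma). The immunoproteasome catalytic subunits gave -0.10 for Psmb8, -0.18 for Psmb9 and -0.16 for Psmb10, with adjusted p from 0.118 to 0.457 (limma). All 5 changes were below 0 and their median was -0.16.

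Of 15 regulators that bind or act on class I promoters, 1 fell and 14 did not pass, with a median of -0.06. A single faller among 15 is near the 5.46% of all genes. Of the 15 changes, 11 were below 0. The most negative was that of Stat2, chosen after its value was seen, at -0.33 (SE 0.11). Its passages overlapped and it did not pass (adjusted p = 0.106, limma). The faller was Nfkb1, the p50 subunit of NF-κB, at 0.47, 0.24, 0.28 and 0.34 at P200, against 0.60, 0.73, 0.62 and 0.61 at P20 (-0.31, SE 0.07, adjusted p = 0.0245, limma). On the array-median scale Nfkb1 missed the threshold (adjusted p = 0.367, limma). Its second probe gave -0.24 and did not pass (adjusted p = 0.283, limma). Nlrc5, the class I transactivator, measured -0.08, 0.22, 0.45 and 0.52 at P200, against 0.58, 0.50, 0.42 and 0.42 at P20. The P200 arrays of Nlrc5 spread widely and overlapped with P20, and its change of -0.20 (SE 0.13) did not pass (adjusted p = 0.408, limma). Irf1 gave 0.03 (adjusted p = 0.843, limma). For Irf9, whose product acts downstream of type I interferon, the brightest probe gave -0.26 (adjusted p = 0.0542, limma) and a second probe -0.23 (adjusted p = 0.0376, limma).

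Of 9 interferon receptor and signalling genes, 8 were tested, none passed in limma, and 0 came under 0.05 before adjustment. Their median change was -0.01. Class I-like molecules encoded outside RT1 gave 1 faller among 7 tested. Before adjustment 6 of the 7 came under 0.05 (limma), and 4 of the 7 changes were below 0. Cd1d1, which presents lipids, changed by -0.37 (SE 0.09, adjusted p = 0.0329, limma), and missed the threshold on the array-median scale (adjusted p = 0.402, limma). The widest change of that list was upward, 0.41 (SE 0.13) for Procr, the endothelial protein C receptor, with no overlap but not past the test (adjusted p = 0.0925, limma). Fcgrt, the heavy chain of the neonatal Fc receptor, which pairs with B2m, gave 0.23 (SE 0.08, adjusted p = 0.12, limma), and the median of the list was -0.16. Procr and Fcgrt were chosen after their values were seen. Another tested probe of Raet1l, a ligand of the NKG2D receptor, passed at -0.30 (adjusted p = 0.0473, limma), while the gene's brightest probe gave -0.16 and did not (adjusted p = 0.144, limma).

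Most class II genes could not be tested. Of 12 listed genes 9 lacked signal, among them Ciita, the class II transactivator. The 3 tested were the peptide editors RT1-DMa, at -0.05 (SE 0.09), and RT1-DMb, at -0.01 (SE 0.08), and the β chain gene RT1-Db1, at 0.13 (SE 0.18), and 0 of the 3 came under 0.05 before adjustment (limma).

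**Figure D4:**
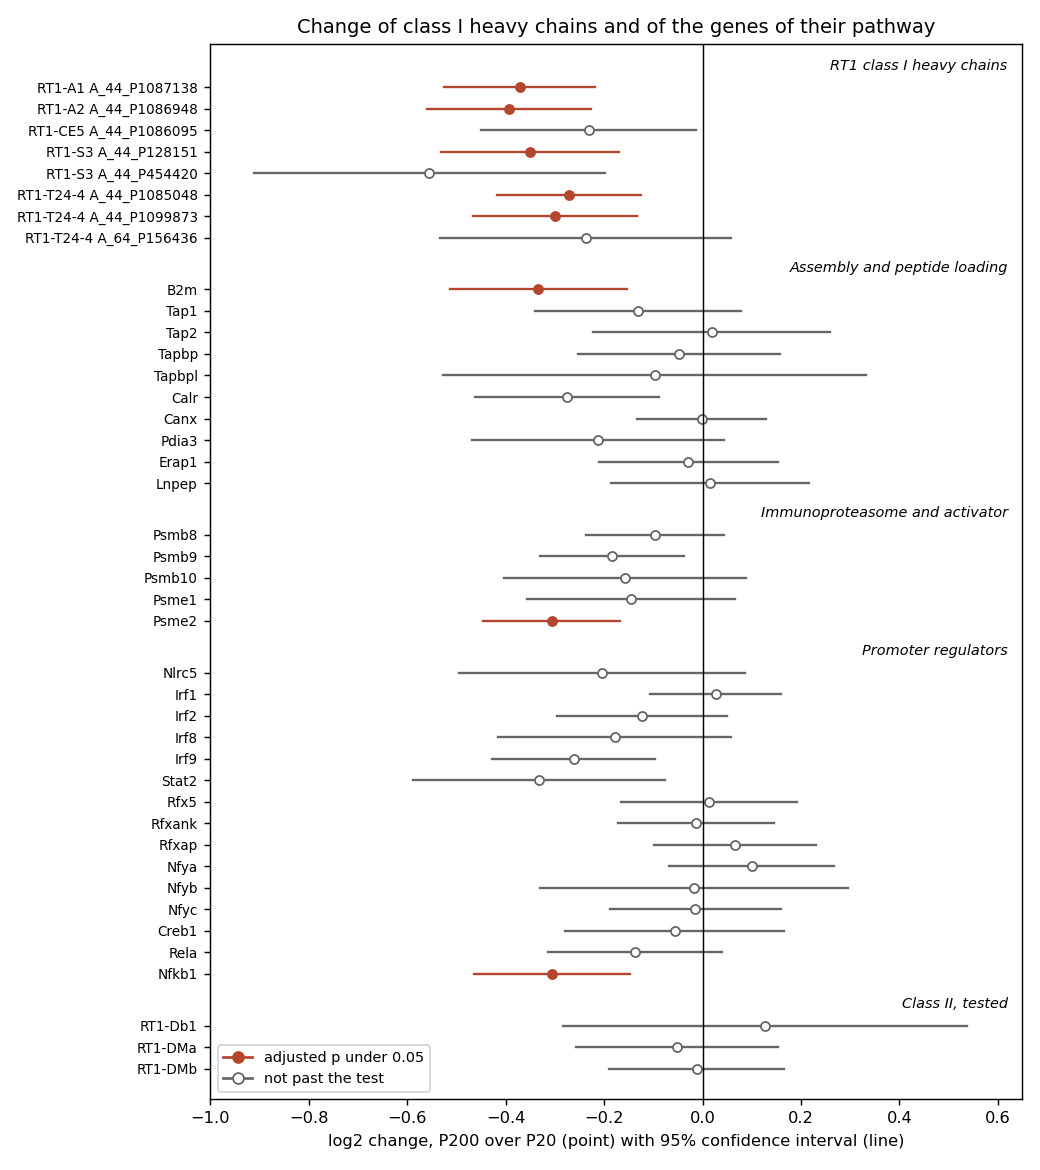
Log2 change at P200 over P20 (x axis, point) with its 95% confidence interval (line) for the 8 heavy chain probes, and for genes of assembly and loading, the immunoproteasome, promoter regulators and class II, each on its brightest tested probe. Filled red points passed the test; outside the heavy chains these are B2m, Psme2 and Nfkb1.

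The promoters of the 5 genes were read because all 8 of their probes were lower on average at P200, with RT1-CE5 not past the test. The 250 bases before the annotated start, from RefSeq on GRCr8, are printed for RT1-A2, RT1-CE5 and RT1-S3, of which the first held the most of the strings searched and the others fewer. Both strands were searched for 6 strings of letters: GGGANTCCC (the κB element of enhancer A), TTTCNNTTC and TTTCNNTTT (both within interferon response elements), TGACG (the CREB core), CCAAT (bound by NF-Y) and TATAAA. Capitals mark the matches, none of which overlap. The strings were chosen with the sequences in view.
RT1-A2, chr20:4872621-4872870, plus strand: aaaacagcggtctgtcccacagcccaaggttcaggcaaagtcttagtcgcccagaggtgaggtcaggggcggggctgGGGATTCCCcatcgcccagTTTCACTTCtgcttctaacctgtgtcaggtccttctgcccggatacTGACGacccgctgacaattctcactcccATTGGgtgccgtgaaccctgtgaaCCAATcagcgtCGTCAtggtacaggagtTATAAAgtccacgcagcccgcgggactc
RT1-CE5, chr20:3484091-3484340, minus strand: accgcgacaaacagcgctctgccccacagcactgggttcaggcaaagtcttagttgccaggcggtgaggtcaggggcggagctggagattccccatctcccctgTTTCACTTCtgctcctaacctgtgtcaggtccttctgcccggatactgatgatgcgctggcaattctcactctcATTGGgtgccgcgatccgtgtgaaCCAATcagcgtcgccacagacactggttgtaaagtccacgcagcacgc
RT1-S3, chr20:2675278-2675527, plus strand: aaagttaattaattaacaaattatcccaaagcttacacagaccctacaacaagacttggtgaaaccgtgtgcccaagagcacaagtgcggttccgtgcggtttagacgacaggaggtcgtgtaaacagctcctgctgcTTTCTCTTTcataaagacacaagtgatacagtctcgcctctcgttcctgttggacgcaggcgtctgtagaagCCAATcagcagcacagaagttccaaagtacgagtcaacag

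The RT1-A2 window held 5 of the 6 strings. Its enhancer A string began 173 bases before the start and its TTTCNNTTC string 154 bases before it. RT1-A1 held 4 of the 6, both of these among them, and lacked the TATA string in this window. The enhancer A string occurred in 0.553% of all 33469 promoters of the table and TTTCNNTTC in 7.12%. RT1-CE5 held TTTCNNTTC and the NF-Y string, the last found in 34.0% of promoters. RT1-S3 held TTTCNNTTT, found in 10.3%, and the NF-Y string, and the RT1-T24-4 window held none of the 6. The B2m window on chromosome 3 held TTTCNNTTT and the CREB, NF-Y and TATA strings. Of all promoters 18.2% held the CREB string and 12.9% the TATA string.

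Among 33 RT1 class I promoters in the table, 8 held the enhancer A string, 13 held TTTCNNTTC and 9 held none of the 6. RT1-CE1, which was near no change, was among those with none, as were RT1-T24-4 and RT1-CE12, which fell. A match is a run of letters and not a shown binding site.

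On all 8 arrays 51.0% to 54.5% of spots were well above background, and the signal of the 75th percentile ran from 979 to 1869 at P200 and from 1360 to 1717 at P20. The label was checked against 12 macrophage markers: 9 were well above background on all 8 arrays, Cd68, Lyz2, Csf1r and Pparg among them, while Marco and Adgre1 were not and Itgax was not found by name. Of these markers 2 fell, Siglec5 by 1.69 (SE 0.11) and Cd14 by 0.91 (SE 0.12) on the log2 scale. For Lyz2 the brightest probe gave -0.21 (adjusted p = 0.213, limma) and A_64_P025286 gave 0.07 (adjusted p = 0.831, limma), while A_44_P1154697 passed at -0.38 (adjusted p = 0.00754, limma); these probes were chosen after their values were seen. Of 14 markers of other cell types, 10 were not tested, as they were not well above background on all 4 arrays of either passage. Among them were the epithelial Sftpc, Sftpb, Epcam and Cdh1 and the lymphocyte Cd3e and Ms4a1. On their brightest probes 7 were above background on no array. Sftpc and the mast cell marker Cpa3 were well above it on 1 P200 array each, and Cd3e on 1 P20 array. The 4 tested, Dcn, Col1a2, Pecam1 and Cdh5, had changes from 0.07 to 0.21 and did not pass. Summed over the 14, signal relative to the 75th percentile was 2.35 to 2.51 at P200, against 2.13 to 2.31 at P20, and over the 11 macrophage markers found it was 169 to 183 at P200, against 172 to 210 at P20. The part of marker changes in the fall of the heavy chains was not tested.

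**Figure D5:**
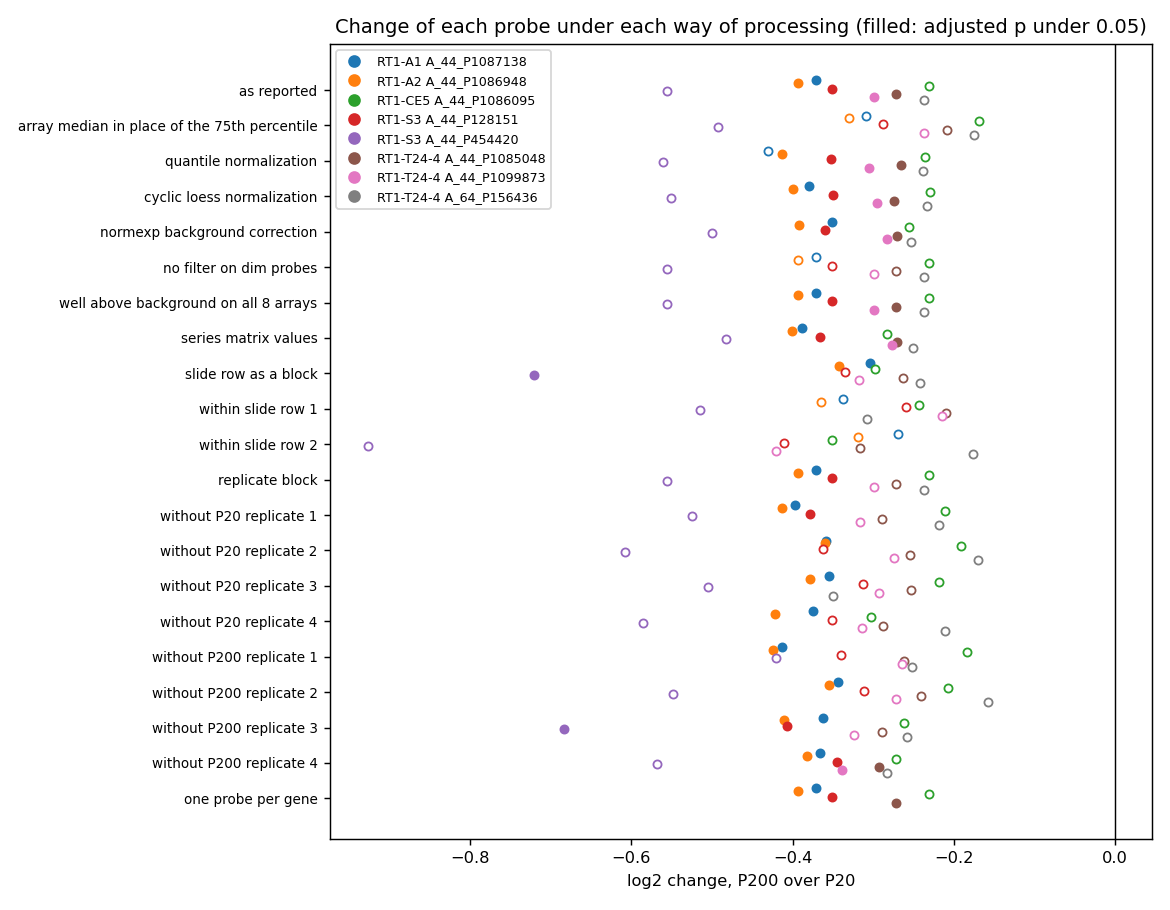
Log2 change at P200 over P20 (x axis) of each of the 8 probes (colours) under each way of processing (y axis); filled points passed the test. All points lie below 0, and none is filled with the array median as the scale, with no filter on dim probes, or within a single slide row.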

How the data were processed

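The deposited scanner files give each spot's intensity on a linear scale, written by Agilent Feature Extraction 11.0.1.1 (submitters' processing notes), with the processed signal as the column used. The authors' deposited series matrix repeats median spot intensity from the same arrays and served only as an alternative. Its P200 columns equal scanner files of other replicate numbers and were assigned by equal values. Here log2 processed signal less each array's 75th percentile was fitted with limma 3.58.1 in R 4.3.3 (lmFit, eBayes, no covariate). Outlier-flagged spots were left out, spots of one probe were averaged, and 84 probes without a usable spot on every array were dropped. A probe was tested if well above background on all 4 arrays of a passage. Differences between probes used exact permutation in Python 3.11.15. The fit was tested on simulated data.

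Named genes are the 8 member probes; of the other RT1 class I probes, the 4 past the test with the largest change and the 2 with the smallest; a fixed set of pathway genes with up to 3 more per list past the test; and the 3 nearest profiles. Results for 2 further genes are not reported here. The members and lists were chosen with earlier results of these data known. Same-numbered P200 and P20 arrays had correlations of deviations of 0.01, 0.12, -0.01 and 0.28, so numbers were not taken as pairs. The number of arrays limits the precision.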

Additional observations from a re-analysis of the deposited data

How the results depend on the processing

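Over 20 alternatives, all 157 changes of the 8 probes were below 0, from -0.93 to -0.16, and 0 reversed. Part of this was fixed in advance. The fits without a filter, with the stricter filter on all 8 arrays, with the replicate block and with 1 probe per gene repeat the reported changes. The other alternatives use the same arrays again, so the signs are not independent and their number is no measure of stability. The count of 5 fallen probes varied. It was 0 with the array median as the scale (1338 of all probes called, against 2092), 0 without a filter on dim probes (908 called), 0 within slide row 1 (408 called) and 0 within slide row 2 (644 called). It was 3 with the slide row as a block, which kept RT1-A1 and RT1-A2, gained RT1-S3 A_44_P454420 and lost RT1-S3 A_44_P128151 and both RT1-T24-4 probes. In the fit with the replicate block it was also 3, without the RT1-T24-4 probes (1702 of all probes); the numbers are not shown to pair the arrays, and not every array correlated best with its own number. The causes were not tested. Single rows hold 4 arrays, 1 of them alone in its passage. The unfiltered fit tests 45514 probes and also gave larger SEs at the same changes. For RT1-A1 the SE was 0.09 there against 0.07, and for RT1-T24-4 A_44_P1085048 it was 0.09 against 0.06. Quantile scaling gave 4, without RT1-A1, and cyclic loess (chosen after seeing the data), normexp, the stricter filter and the series matrix gave 5 each. With the brightest probe of each gene, 4 of 5 genes fell. Leaving out 1 array at a time gave 2 to 5 member probes and 1388 to 1937 of all probes; it was 3 without P20 replicate 1, 2 without P20 replicate 2, 3 or 4 and without P200 replicate 1 or 2, 4 without P200 replicate 3 and 5 without P200 replicate 4. RT1-A1 and RT1-A2 passed in all 8 of these. The median change of all probes was 0.06 with the array median and 0.10 without the filter. No difference between probes, or from B2m, passed under normexp or with any array left out; with 8 arrays or 7, the smallest p of 0.0286 has to be reached by many tests at once to pass after adjustment, so this says little of stability. All 8 probes were well above background on all 8 arrays, and whether their signal level limited the calls was not tested.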
